A study of Homo sapiens with 8 samples.

Results

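The interferon-stimulated genes described here are 48 genes of the deposited expression table, which holds 21123 genes in all. They were chosen by symbol from a list of 49 names of antiviral effectors, RNA sensors, transcription factors and regulators, with the tryptophan-degrading enzyme IDO1 included. The remaining name, RIGI, is not a row under that symbol, and the same gene is present under its older symbol DDX58. Of the 48 genes, 42 reached 1 FPKM (fragments scaled by gene length and by the number of fragments in the library) in at least 2 libraries and were tested, and IFIT1 reached it in the shControl vehicle libraries alone. ISG20 reached it in shZDHHC8 libraries alone, and XAF1 in shControl libraries alone. The 6 that were not tested were OASL, MX2, GBP2, RSAD2, CMPK2 and IFI44L, whose highest value in any library was 0.719 FPKM, for GBP2.

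Expression was measured by poly(A) RNA-seq in 143B, a human osteosarcoma cell line. The cells stably carried an shRNA against ZDHHC8, a palmitoyltransferase that attaches fatty acids to proteins, or a non-targeting control shRNA. Either line received cisplatin, a drug that crosslinks DNA, or PBS as the vehicle for 48 h, at a dose the labels do not give. The 4 groups were shZDHHC8 with cisplatin, shControl with cisplatin, shZDHHC8 with vehicle and shControl with vehicle, with 2 libraries each, all from the same cell line and labelled batch 1. The design asks what ZDHHC8 depletion changes in these cells and how it alters their response to cisplatin.

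Interferons are secreted when cells sense foreign or misplaced nucleic acid. Type I interferons bind the receptor chains IFNAR1 and IFNAR2, whose kinases JAK1 and TYK2 phosphorylate STAT2 and other STAT proteins. A complex that holds STAT2 and IRF9 binds the interferon-stimulated response element (ISRE) of target promoters, while the GAS element is used in the response to interferon gamma. The target genes encode proteins that block virus entry, translation and release, and many keep a low baseline level in tumour cells without added interferon.

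Promoters of 8 members are printed because they belong to the genes on which the comparisons turn: 6 hold an ISRE core and 2 do not. The ISRE core was searched as TTTCNNTTTC and the GAS element as TTCNNNGAA, on both strands, in the 250 bases before each annotated start (RefSeq, GRCh38.p14). Of the 48 members, 36 matched a RefSeq promoter window. The ISRE core was found in 22 of these, or 61.1%, against 1014 of 27305 genes, or 3.71%. The GAS element was found in 9 of the 36, or 25.0%, against 2208 of all genes, or 8.09%. Each line below gives the last 170 bases before the start, 5′ to 3′ along the gene, with ISRE cores of either orientation in capitals and overlapping cores run together.
IFI6 (chr1:27672193-27672362, minus strand): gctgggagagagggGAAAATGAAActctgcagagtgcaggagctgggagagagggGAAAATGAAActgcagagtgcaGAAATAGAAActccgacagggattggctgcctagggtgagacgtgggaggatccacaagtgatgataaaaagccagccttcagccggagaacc
SAMD9 (chr7:93117980-93118149, minus strand): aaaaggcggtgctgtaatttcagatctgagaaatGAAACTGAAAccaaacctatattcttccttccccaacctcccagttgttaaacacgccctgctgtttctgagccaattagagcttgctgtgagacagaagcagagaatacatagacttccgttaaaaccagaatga
ISG15 (chr1:1013327-1013496, plus strand): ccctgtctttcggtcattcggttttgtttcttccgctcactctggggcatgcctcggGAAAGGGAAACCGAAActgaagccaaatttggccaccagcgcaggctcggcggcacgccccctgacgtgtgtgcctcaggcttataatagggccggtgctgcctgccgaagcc
IFIT1 (chr10:89392453-89392622, plus strand): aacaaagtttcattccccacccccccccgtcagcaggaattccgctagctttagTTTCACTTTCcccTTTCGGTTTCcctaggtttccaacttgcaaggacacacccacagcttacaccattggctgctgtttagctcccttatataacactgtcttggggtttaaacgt
BST2 (chr19:17405631-17405800, minus strand): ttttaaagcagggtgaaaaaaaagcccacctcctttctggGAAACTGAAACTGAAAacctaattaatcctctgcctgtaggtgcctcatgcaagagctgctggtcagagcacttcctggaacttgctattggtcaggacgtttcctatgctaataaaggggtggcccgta
IFITM3 (chr11:320861-321030, minus strand): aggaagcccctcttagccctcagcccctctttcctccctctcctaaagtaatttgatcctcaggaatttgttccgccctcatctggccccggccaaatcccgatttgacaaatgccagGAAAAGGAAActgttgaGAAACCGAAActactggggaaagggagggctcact
IFI35 (chr17:43006614-43006783, plus strand): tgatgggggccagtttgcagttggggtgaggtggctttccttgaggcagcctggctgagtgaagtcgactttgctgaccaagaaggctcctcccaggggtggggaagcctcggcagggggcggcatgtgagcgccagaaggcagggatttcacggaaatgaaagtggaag
SAMHD1 (chr20:36951709-36951878, minus strand): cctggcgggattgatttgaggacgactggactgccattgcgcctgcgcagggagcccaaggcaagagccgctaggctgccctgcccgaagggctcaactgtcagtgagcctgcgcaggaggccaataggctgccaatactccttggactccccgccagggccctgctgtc
A match is a run of letters and not a measured binding site. IFI6 held 3 cores in these bases, SAMD9 held 1, and ISG15, IFIT1, BST2 and IFITM3 held 2 each. No ISRE core was found in the printed bases of IFI35 and SAMHD1.

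The targeted gene was lower in the knockdown libraries of both treatments. ZDHHC8 had 23.5 and 22.3 FPKM in shZDHHC8 cells with cisplatin, 32.3 and 32.8 FPKM in shControl cells with cisplatin, 14.3 and 9.81 FPKM in shZDHHC8 cells with vehicle, and 23.7 and 23.1 FPKM in shControl cells with vehicle. Its level in shZDHHC8 cells with cisplatin was therefore close to that of shControl cells with vehicle. On the log2(FPKM + 1) scale used for all changes below, the knockdown lowered it by a log2 change of -0.49 ± 0.13 (SE, adjusted p = 0.0102) under cisplatin and by -0.92 ± 0.13 (adjusted p = 0.000472) in vehicle. Library totals ran between 361060 and 391016 FPKM, and correlations of log2 values across genes were 0.995 to 0.996 within groups and 0.939 to 0.978 between groups. Of 10 osteoblast lineage markers 8 were rows of the table and 5 reached 1 FPKM in some library, with RUNX2 at up to 14.1 FPKM and SPP1 at 56.5 to 275 FPKM, while the bone matrix gene BGLAP stayed at or under 0.233 FPKM. Of 8 leukocyte markers 6 were in the table, and ITGAX alone reached 1 FPKM, with PTPRC at or under 0.140 FPKM and CD3E at 0 throughout. The summed leukocyte markers were 2.27 to 2.96 FPKM in shZDHHC8 and 0.369 to 0.435 FPKM in shControl cells with cisplatin, and 2.20 to 2.22 FPKM in shZDHHC8 and 0.693 to 0.735 FPKM in shControl cells with vehicle. The summed epithelial markers, led by KRT8 and KRT18, were 568 to 588 FPKM in shZDHHC8 and 803 to 813 FPKM in shControl cells with cisplatin, and 638 to 648 FPKM in shZDHHC8 and 928 to 939 FPKM in shControl cells with vehicle. The summed osteoblast lineage markers were 223 to 226 FPKM in shZDHHC8 and 74.4 to 81.2 FPKM in shControl cells with cisplatin, and 284 to 299 FPKM in shZDHHC8 and 165 to 172 FPKM in shControl cells with vehicle. The summed mesenchymal markers were 1410 to 1430 FPKM in shZDHHC8 and 1290 to 1300 FPKM in shControl cells with cisplatin, and 2230 to 2440 FPKM in shZDHHC8 and 1870 to 1920 FPKM in shControl cells with vehicle. SPP1 made up most of the osteoblast sum. In vehicle SPP1 and SPARC averaged higher in shZDHHC8 than in shControl cells. RUNX2 (10.3 FPKM in shZDHHC8 and 12.9 FPKM in shControl cells) and COL1A1 (2.38 and 5.08 FPKM) averaged lower there. Under cisplatin these 4 genes were higher in shZDHHC8 cells. All 4 marker sums differed by shRNA with no overlap, and their part in the results below was not tested.

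In vehicle-treated control cells the members ranged widely in level per length. In shControl cells with vehicle, 17 of the 48 averaged 10 FPKM or more and 8 averaged under 1 FPKM. The highest were IFITM3 at 393 FPKM, the secreted glycoprotein LGALS3BP at 196 FPKM, IFITM2 at 97.9 FPKM, the ubiquitin ligase TRIM25 at 46.9 FPKM and the virus tether BST2 at 43.7 FPKM. ISG15 was at 18.4 FPKM, IFIT1 was at 1.41 FPKM, and RSAD2 was listed at 0 in both libraries. IFNB1 was at or under 0.0431 FPKM in every library, and IFNE, at 0.713 to 1.29 FPKM, was the one interferon gene tested.

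**Figure D1:**
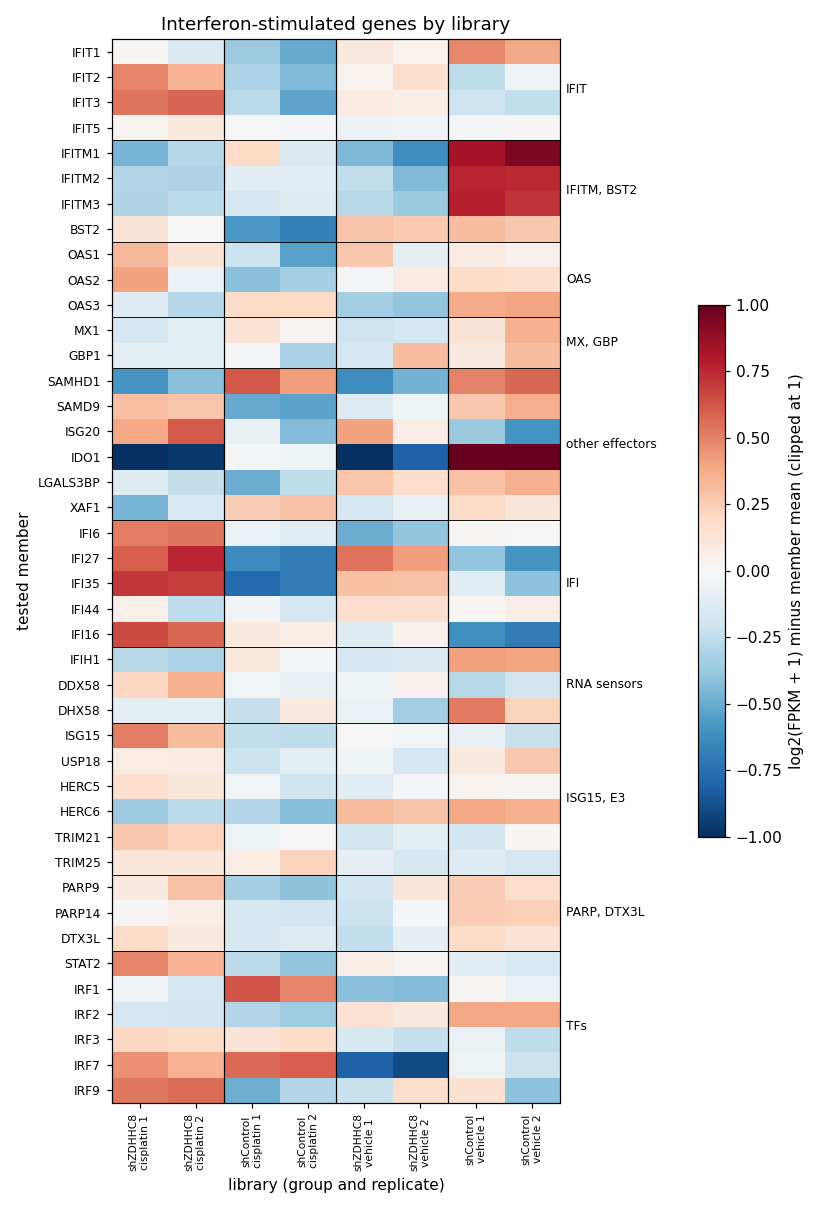
Each row is a tested member and each column a library; colour is log2(FPKM + 1) minus that member's mean over the 8 libraries, clipped at 1 to either side. IFI6, IFI35, IFIT2 and IFIT3 are reddest in the shZDHHC8 cisplatin libraries, while IDO1 and the IFITM genes are reddest in the shControl vehicle libraries.

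For 24 members, IFI6, SAMD9, IDO1 and the IFITM genes among them, the response to cisplatin differed between the 2 backgrounds. In shZDHHC8 cells 17 of 42 members rose and 4 fell with cisplatin (limma, adjusted p under 0.05 over all tested genes), where 36.9% of all 13495 tested genes rose and 13.6% fell, 50.5% in all. In shControl cells 5 members rose and 21 fell, where 36.8% of all genes rose and 25.4% fell, 62.2% in all. The median member changed by 0.18 in shZDHHC8 cells and by -0.25 in shControl cells, against 0.13 in shZDHHC8 and 0.07 in shControl cells for all tested genes. The difference between the 2 cisplatin changes was itself tested as an interaction, in which a positive value means a more positive change in shZDHHC8 cells. It was positive for 24 of 42 members, where 17.0% of all tested genes were called positive and 13.4% negative (30.4% in all), and its median over the members was 0.52, against 0.04 over all tested genes. By limma no member was called negative, and at an unadjusted p under 0.05 there were 28 positive members and 1 negative, IRF1. Without IFIT1, which passed the filter through the shControl vehicle libraries alone, 23 interactions were positive and 20 members fell in shControl cells. Under median-of-ratios scaling, which moved the median change of all genes in shZDHHC8 cells to 0.004 from 0.132, members rising with cisplatin in shZDHHC8 cells numbered 10 and those falling 5; the rises of DDX58, IFIT2, TRIM25, IRF1, HERC5, DTX3L and IRF9 were no longer called. All tested genes were then split 2925 higher and 3075 lower, against 4976 and 1841 as deposited. In shControl cells 25 members fell under that scaling, where 29.7% of all genes fell, and IFIT3, IFI6, HERC5 and IFI27 were the members added. The interaction under that scaling called 21 members positive and 1 negative, and 1708 genes positive and 2544 negative, against 2298 and 1806 as deposited.

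Among the IFI proteins, IFI6, a membrane protein that restrains cell death and virus replication, rose with cisplatin in the knockdown cells. It had 12.4 and 12.6 FPKM in shZDHHC8 cells with cisplatin, 7.95 and 7.73 FPKM in shControl cells with cisplatin, 5.66 and 6.19 FPKM in shZDHHC8 cells with vehicle, and 8.49 and 8.42 FPKM in shControl cells with vehicle. The shZDHHC8 cisplatin libraries were the highest and the shZDHHC8 vehicle libraries the lowest, and neither pair overlapped any other group. The cisplatin change was 0.96 ± 0.06 (SE, adjusted p = 1.49e-05) in shZDHHC8 cells and -0.10 (adjusted p = 0.204) in shControl cells, an interaction of 1.06 ± 0.09 (adjusted p = 0.000161). IFI35, which forms a cytosolic complex with NMI, had 33.9 and 33.6 FPKM in shZDHHC8 cells with cisplatin, 11.5 and 12.2 FPKM in shControl cells with cisplatin, 25.4 and 25.2 FPKM in shZDHHC8 cells with vehicle, and 18.9 and 15.1 FPKM in shControl cells with vehicle. It rose by 0.40 ± 0.09 in shZDHHC8 cells (adjusted p = 0.00536) and changed by -0.48 ± 0.09 in shControl cells (adjusted p = 0.00145), with an interaction of 0.88 ± 0.13 (adjusted p = 0.00154). IFI16, a sensor of DNA, rose in both backgrounds, by 0.65 in shZDHHC8 cells and 0.74 in shControl cells, and its interaction was -0.08 ± 0.10 (adjusted p = 0.542). IFI27 was not called for cisplatin in either background, with 0.20 in shZDHHC8 and -0.18 in shControl cells, but its interaction of 0.38 was called (adjusted p = 0.0405), though not under median-of-ratios scaling. IFI44 was called in none of these 3 tests.

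The effectors that restrict replication, or act on nucleotides and metabolites, differed among themselves. SAMD9, a cytoplasmic antiviral factor, had 5.62 and 5.53 FPKM in shZDHHC8 cells with cisplatin, 2.79 and 2.71 FPKM in shControl cells with cisplatin, 3.93 and 4.22 FPKM in shZDHHC8 cells with vehicle, and 5.49 and 5.94 FPKM in shControl cells with vehicle. The shControl cisplatin libraries were the lowest of the 4 groups. SAMD9 rose by 0.37 ± 0.07 in shZDHHC8 cells (adjusted p = 0.00285) and changed by -0.84 ± 0.07 in shControl cells (adjusted p = 1.63e-05), with an interaction of 1.21 ± 0.10 (adjusted p = 0.000164). IDO1 had 0.971 and 1.42 FPKM in shZDHHC8 cells with cisplatin, 3.70 and 3.59 FPKM in shControl cells with cisplatin, 1.18 and 1.70 FPKM in shZDHHC8 cells with vehicle, and 19.4 FPKM in both shControl vehicle libraries. In shZDHHC8 cells its cisplatin and vehicle libraries overlapped (change -0.15, adjusted p = 0.336), and in shControl cells it changed by -2.13 ± 0.12 (adjusted p = 1.83e-06). Its interaction of 1.99 ± 0.17 (adjusted p = 0.00019), the largest among the tested members, therefore came with a fall in shControl cells and no called change in shZDHHC8 cells. On the log2(FPKM + 1) scale, the low shZDHHC8 vehicle values of IDO1 left less room for a fall than its shControl vehicle values. LGALS3BP fell in both backgrounds, by 0.41 in shZDHHC8 and 0.70 in shControl cells, and SAMHD1, a hydrolase of DNA building blocks, the exonuclease ISG20 and the cell death factor XAF1 were called in neither.

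The membrane effectors fell with cisplatin in the control cells. IFITM3, which with IFITM1 and IFITM2 keeps viruses from fusing with cell membranes, had 189 and 195 FPKM in shZDHHC8 cells with cisplatin, 207 and 214 FPKM in shControl cells with cisplatin, 192 and 179.8 FPKM in shZDHHC8 cells with vehicle, and 400.0 and 386 FPKM in shControl cells with vehicle. The shControl vehicle libraries stood above all 6 others. Its cisplatin change was 0.05 ± 0.05 in shZDHHC8 cells (adjusted p = 0.442) and -0.90 ± 0.05 in shControl cells (adjusted p = 1.19e-06), an interaction of 0.94 ± 0.07 (adjusted p = 8.72e-05). IFITM1 and IFITM2 had cisplatin changes of 0.16 and 0.04 in shZDHHC8 cells, not called, and -0.86 each in shControl cells, with interactions of 1.02 and 0.90. The 3 IFITM genes are near-identical paralogs and the IFITM1 row lies within that of IFITM2 on the same strand, so the split of reads between them is uncertain. BST2 had 38.9 and 35.7 FPKM in shZDHHC8 cells with cisplatin, 23.6 and 22.0 FPKM in shControl cells with cisplatin, 43.6 and 42.8 FPKM in shZDHHC8 cells with vehicle, and 44.3 and 43.2 FPKM in shControl cells with vehicle. It fell in both backgrounds, by 0.21 ± 0.06 in shZDHHC8 cells (adjusted p = 0.0168) and by 0.91 ± 0.06 in shControl cells (adjusted p = 3.07e-06), and the interaction was 0.71 ± 0.08 (adjusted p = 0.000657). The fall in shZDHHC8 cells was not called without shZDHHC8 vehicle replicate 1 (adjusted p = 0.0676) or without shZDHHC8 cisplatin replicate 2 (adjusted p = 0.125).

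**Figure D2:**
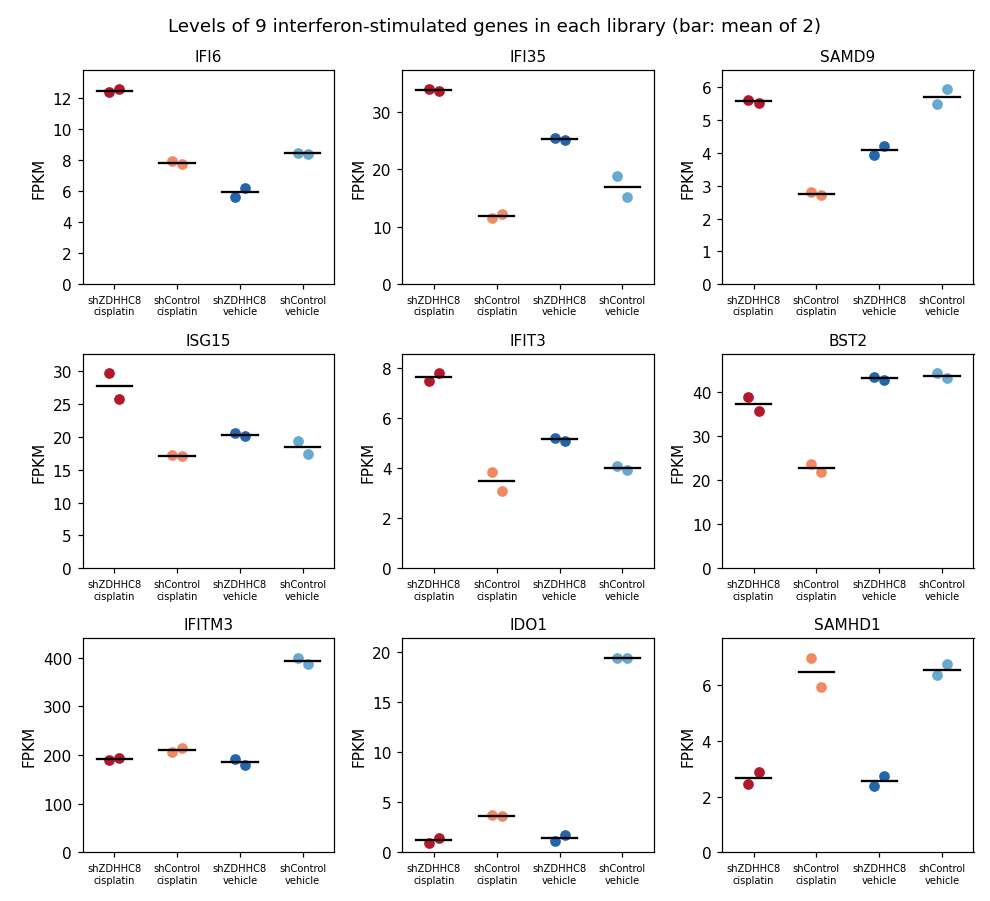
Levels in FPKM of 9 members in the 2 libraries of each group (points) with their mean (bar), each axis starting at 0. IFI6, IFI35, ISG15 and IFIT3 are highest in shZDHHC8 cells with cisplatin, IFITM3 and IDO1 in shControl cells with vehicle, and SAMHD1 differs by shRNA under either treatment.

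The IFIT proteins bind foreign RNA and curb its translation. IFIT3 had 7.51 and 7.80 FPKM in shZDHHC8 cells with cisplatin, 3.87 and 3.09 FPKM in shControl cells with cisplatin, 5.21 and 5.12 FPKM in shZDHHC8 cells with vehicle, and 4.09 and 3.95 FPKM in shControl cells with vehicle. IFIT3 rose by 0.49 ± 0.09 with cisplatin in shZDHHC8 cells (adjusted p = 0.00206), with -0.17 (adjusted p = 0.128) in shControl cells. IFIT2, at 0.682 to 2.21 FPKM, rose by 0.32 (adjusted p = 0.0448) in shZDHHC8 cells, a call lost under both other scalings. The interaction was called for IFIT3 (0.66) and IFIT2 (0.55), while IFIT5 lay between 2.84 and 3.30 FPKM and was called in no comparison. IFIT1 had 0.811 and 0.625 FPKM in shZDHHC8 cells with cisplatin, 0.394 and 0.261 FPKM in shControl cells with cisplatin, 0.910 and 0.827 FPKM in shZDHHC8 cells with vehicle, and 1.49 and 1.32 FPKM in shControl cells with vehicle. Since the shControl vehicle libraries alone brought it past the filter, its differences from that group are given as values and support nothing here. The rows of IFIT1, IFIT2 and IFIT3 lie opposite LIPA, a lysosomal lipase gene, and whether counting used strand is not stated. LIPA averaged 16.1 FPKM in shZDHHC8 and 4.37 FPKM in shControl cells with cisplatin, and 17.8 FPKM in shZDHHC8 and 8.72 FPKM in shControl cells with vehicle, above these 3 genes, and its part in their values was not tested. The IFIT2 row also overlaps AL353751.1 on the same strand. That gene averaged 2.01 FPKM in shZDHHC8 and 1.17 FPKM in shControl cells with cisplatin. With vehicle it averaged 1.27 FPKM in shZDHHC8 and 0.252 FPKM in shControl cells, and its part in the IFIT2 values was not tested. Of the oligoadenylate synthetases, which make a second messenger when they bind double-stranded RNA, OAS1, OAS2 and OAS3 fell in shControl cells by 0.44, 0.55 and 0.19 and were called in no direction in shZDHHC8 cells (0.14, 0.14 and 0.17). Their interactions were 0.58 for OAS1 (adjusted p = 0.0778), 0.68 for OAS2 (adjusted p = 0.0335) and 0.36 for OAS3 (adjusted p = 0.0229), and the GTPases MX1 and GBP1 were called in none of these 3 tests.

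The ubiquitin-like modifier ISG15 rose with cisplatin in the knockdown cells. ISG15 had 29.6 and 25.8 FPKM in shZDHHC8 cells with cisplatin, 17.2 and 17.0 FPKM in shControl cells with cisplatin, 20.5 and 20.1 FPKM in shZDHHC8 cells with vehicle, and 19.4 and 17.4 FPKM in shControl cells with vehicle. Both shZDHHC8 cisplatin libraries were above all 6 others. Its change was 0.43 ± 0.08 (adjusted p = 0.00177) in shZDHHC8 cells and -0.10 (adjusted p = 0.279) in shControl cells, with an interaction of 0.52 ± 0.11 (adjusted p = 0.00736). HERC5, the ligase that attaches ISG15, rose by 0.20 in shZDHHC8 cells and its interaction was 0.35 (adjusted p = 0.0294); both calls were lost under median-of-ratios scaling. USP18, which removes ISG15 and restrains the type I receptor, fell by 0.34 in shControl cells, with 0.18 (not called) in shZDHHC8 cells and an interaction of 0.52. The ligases TRIM25 and TRIM21 rose in shZDHHC8 cells, TRIM25 in shControl cells as well, and HERC6 fell by 0.61 in shZDHHC8 and 0.73 in shControl cells. The 3 ADP-ribosylation genes had positive interactions, where 17.0% of all tested genes were called positive. The values were 0.81 for PARP9, 0.62 for its ligase partner DTX3L and 0.57 for PARP14. In shControl cells, where 25.4% of all tested genes fell, PARP9 fell by 0.58, DTX3L by 0.31 and PARP14 by 0.42. In shZDHHC8 cells DTX3L alone rose, by 0.31.

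Of the 6 tested transcription factors, 5 rose and 1 fell with cisplatin in shZDHHC8 cells, and 3 rose and 2 fell in shControl cells, where 36.9% of all tested genes rose in shZDHHC8 and 36.8% in shControl cells. Under median-of-ratios scaling 3 rose in shZDHHC8 cells, without IRF1 and IRF9. IRF7, which amplifies type I interferon production, had 17.8 and 16.4 FPKM in shZDHHC8 cells with cisplatin, 19.3 and 19.8 FPKM in shControl cells with cisplatin, 6.85 and 6.38 FPKM in shZDHHC8 cells with vehicle, and 12.3 and 10.8 FPKM in shControl cells with vehicle. Cisplatin libraries lay above vehicle libraries in both backgrounds, with changes of 1.25 ± 0.07 (adjusted p = 1.02e-05) in shZDHHC8 cells and 0.72 ± 0.07 (adjusted p = 4.29e-05) in shControl cells, and an interaction of 0.54 ± 0.10 (adjusted p = 0.00593). IRF1 rose by 0.32 in shZDHHC8 and 0.58 in shControl cells, and IRF3, the factor activated by nucleic acid sensing, rose by 0.39 in shZDHHC8 and 0.32 in shControl cells. STAT2 rose in shZDHHC8 cells by 0.37 ± 0.07 (adjusted p = 0.00261) and fell in shControl cells by 0.20 (adjusted p = 0.0337), with an interaction of 0.56. IRF2, an antagonist of IRF1, fell by 0.30 in shZDHHC8 and 0.71 in shControl cells. IRF9 had 4.25 and 4.38 FPKM in shZDHHC8 cells with cisplatin, 1.59 and 1.98 FPKM in shControl cells with cisplatin, 2.11 and 3.11 FPKM in shZDHHC8 cells with vehicle, and 3.06 and 1.74 FPKM in shControl cells with vehicle. Its vehicle groups overlapped, and its rise of 0.57 in shZDHHC8 cells (adjusted p = 0.0328) and its interaction of 0.83 (adjusted p = 0.0443) rested on single libraries: without shZDHHC8 vehicle replicate 1 they were 0.37 (adjusted p = 0.202) and 0.63 (adjusted p = 0.132). Its row overlaps another gene on the same strand, AL136295.5, which averaged 8.34 FPKM over the 8 libraries. With cisplatin AL136295.5 averaged 10.7 FPKM in shZDHHC8 and 8.06 FPKM in shControl cells. With vehicle it averaged 7.56 FPKM in shZDHHC8 and 7.09 FPKM in shControl cells, and its part in the IRF9 values was not tested. Of the RNA sensors, IFIH1 and DHX58 fell in shControl cells by 0.36 and 0.43, DDX58 rose in shZDHHC8 cells by 0.28 (adjusted p = 0.0372), and none had a called interaction.

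**Figure D3:**
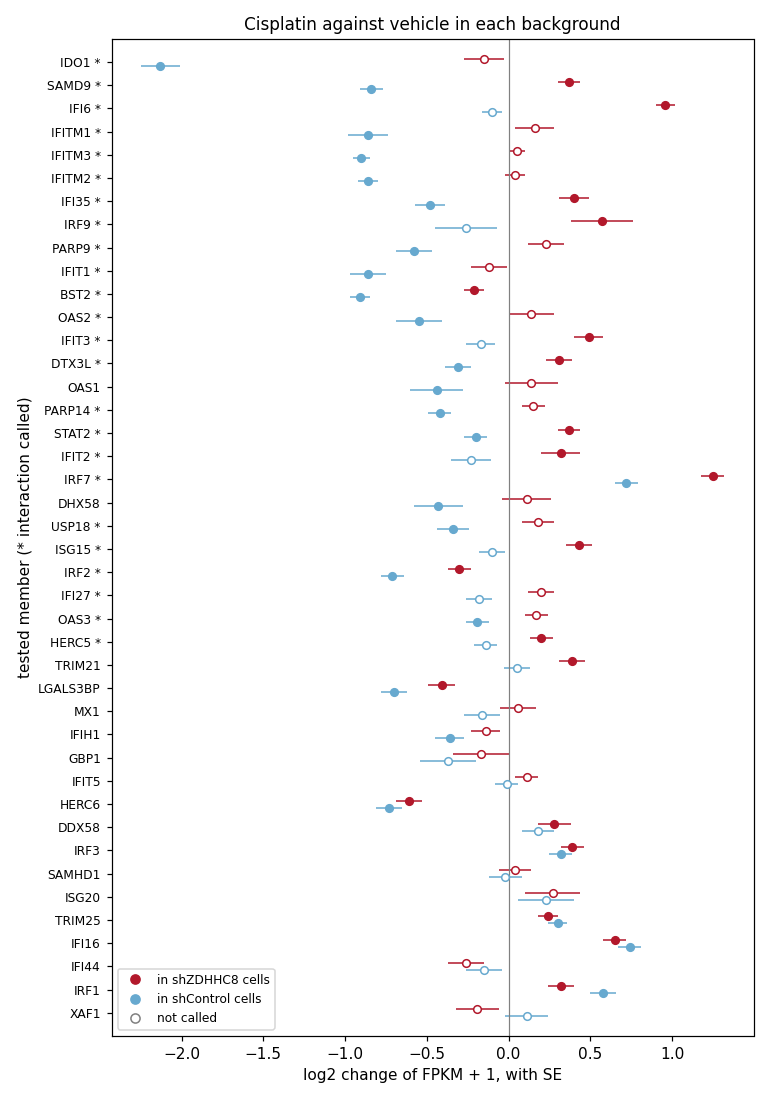
Log2 change of FPKM + 1 with cisplatin against vehicle, with its SE, for each tested member in shZDHHC8 cells (red) and in shControl cells (blue), sorted by the interaction; open points were not called and stars mark a called interaction. The 24 starred genes all have the red point to the right of the blue one, from 1.99 for IDO1 to 0.35 for HERC5.

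By the calls of the cisplatin contrasts, 5 members rose in both backgrounds (IFI16, TRIM25, IRF1, IRF3 and IRF7) and 4 fell in both (BST2, LGALS3BP, HERC6 and IRF2). Such pairs of calls were not counted over all tested genes, so their counts are not read as particular to the members. The 4 members that rose in shZDHHC8 cells and fell in shControl cells were SAMD9, IFI35, DTX3L and STAT2, of which the rise of DTX3L was not called under median-of-ratios scaling. A further 8 rose in shZDHHC8 cells and were not called in shControl cells, and 13 fell in shControl cells and were not called in shZDHHC8 cells. IFIT1 is among those 13, and because of the filter its fall supports nothing here. Promoter windows were available for 17 of the 24 members with a called interaction, of which 13 held the ISRE core and 6 the GAS element. IFIT1 is counted among those with the ISRE core, with the same limit. Among the 16 tested members with a window and no called interaction, 7 held the ISRE core and 3 the GAS element. Of the 14 members with a window that rose with cisplatin in shZDHHC8 cells, 5 held the ISRE core, IFI6, SAMD9 and ISG15 among them. The core was more frequent among the 16 with a window that were not called in that contrast, of which 13 held it. Of the 3 with a window that fell, 2 held it.

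The knockdown was then compared within each treatment; its vehicle contrast and the cisplatin contrast in shControl cells share the shControl vehicle libraries. Under cisplatin 21 of 42 members were higher and 9 lower in shZDHHC8 than in shControl cells, where 33.8% of all tested genes were higher and 27.6% lower, 61.4% in all. In vehicle 5 members were higher and 18 lower (17 without IFIT1), where 26.7% of all tested genes were higher and 25.0% lower, 51.7% in all. ISG20 is counted as higher in both treatments and XAF1 as lower under cisplatin. Each passed the filter only through libraries of the line in which it was higher, so these calls support nothing here. The median member changed by 0.22 under cisplatin and -0.13 in vehicle, against 0.04 under cisplatin and 0.02 in vehicle for all tested genes. The count of members lower under cisplatin was 5 without shControl cisplatin replicate 1, with IFITM1, IFITM2 and IFIH1 among those lost. When library totals were made equal, the split of all genes under cisplatin turned to 3701 higher and 4619 lower, with 18 members higher and 10 lower, and under median-of-ratios scaling it was 3704 and 4573, with 18 and 10 members. With equal totals the vehicle split over all genes was 2888 higher and 4054 lower, with 5 members higher and 19 lower.

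IFI35 and IFI27 were the members with the largest rises under cisplatin. With the IFI35 values given above, the knockdown raised IFI35 by 1.44 ± 0.09 under cisplatin (adjusted p = 3.66e-06) and by 0.56 ± 0.09 in vehicle (adjusted p = 0.000922). IFI27, a small membrane protein related to IFI6, had 27.1 and 30.5 FPKM in shZDHHC8 and 10.9 and 10.4 FPKM in shControl cells with cisplatin, and 26.0 and 23.8 FPKM in shZDHHC8 and 13.1 and 11.4 FPKM in shControl cells with vehicle. The shZDHHC8 libraries did not overlap the shControl libraries in either treatment, and the changes were 1.35 ± 0.08 under cisplatin (adjusted p = 3.82e-06) and 0.97 ± 0.08 in vehicle (adjusted p = 3.02e-05). The others called higher in both treatments were IFI16 (0.54 under cisplatin and 0.62 in vehicle), ISG20 (0.76 under cisplatin and 0.72 in vehicle) and IFIT3 (0.96 under cisplatin and 0.30 in vehicle). Since shZDHHC8 libraries alone brought ISG20 past the filter, its changes are given as values only. The vehicle call of IFIT3 (adjusted p = 0.0212) was lost when any 1 of the 4 vehicle libraries was left out, with adjusted p of 0.0589 to 0.0913.

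By call, 5 members were higher in shZDHHC8 than in shControl cells under cisplatin and lower in vehicle. These were SAMD9 (0.81 under cisplatin and -0.40 in vehicle), IFI6 (0.61 under cisplatin and -0.45 in vehicle), IFIT1 (0.37 under cisplatin and -0.36 in vehicle), DTX3L (0.29 under cisplatin and -0.33 in vehicle) and PARP14 (0.21 under cisplatin and -0.36 in vehicle). The vehicle call of IFIT1 supports nothing here, since the shControl vehicle libraries alone brought it past the filter. A further 11 were higher under cisplatin and not called in vehicle, among them IFIT2 at 0.80, STAT2 at 0.74, BST2 at 0.69, ISG15 at 0.66, OAS1 at 0.61, PARP9 at 0.56 and OAS2 at 0.55. IRF9 was also of this kind, at 0.94 ± 0.19 (limma, adjusted p = 0.00247), and its overlap with AL136295.5 applies here too. The calls of TRIM21, HERC5 and PARP14 under cisplatin were lost under both scalings. Pairs of knockdown calls were not counted over all tested genes either, so their counts are not read as particular to the members.

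The 8 members lower in shZDHHC8 cells in both treatments were IDO1, SAMHD1, the 3 IFITM genes, OAS3, IFIH1 and IRF1. This count, too, has no count over all tested genes beside it. IDO1 was 13.5-fold lower in mean FPKM in shZDHHC8 than in shControl cells with vehicle (log2 change -3.07 ± 0.12, adjusted p = 5.99e-07) and changed by -1.09 ± 0.12 (adjusted p = 9.05e-05) under cisplatin. SAMHD1 had 2.45 and 2.90 FPKM in shZDHHC8 and 7.00 and 5.94 FPKM in shControl cells with cisplatin, and 2.38 and 2.75 FPKM in shZDHHC8 and 6.36 and 6.76 FPKM in shControl cells with vehicle. The shZDHHC8 libraries lay below the shControl libraries in both treatments, with changes of -1.02 ± 0.10 (adjusted p = 4.1e-05) under cisplatin and -1.09 ± 0.10 (adjusted p = 4.22e-05) in vehicle, and the interaction was 0.06 ± 0.14 (adjusted p = 0.763). The IFITM genes differed less under cisplatin (IFITM1 -0.40, IFITM2 -0.19 and IFITM3 -0.13) than in vehicle (IFITM1 -1.42, IFITM2 -1.09 and IFITM3 -1.08), which is the interaction already given. The cisplatin call of IFITM3 was lost without shControl cisplatin replicate 1. Under cisplatin the IFITM2 call was lost without any 1 of the 4 libraries (adjusted p of 0.0703 to 0.0898). The IFITM1 call was lost without shControl cisplatin replicate 1 (adjusted p = 0.129) or shZDHHC8 cisplatin replicate 1 (adjusted p = 0.114), and the IFIH1 call without shControl cisplatin replicate 1 (adjusted p = 0.0743) or shZDHHC8 cisplatin replicate 2 (adjusted p = 0.0541). OAS3 changed by -0.40 under cisplatin and -0.76 in vehicle, IRF1 by -0.66 under cisplatin and -0.40 in vehicle, and XAF1 was called lower under cisplatin (-0.58) and not in vehicle (-0.28), with a difference that was not called (interaction adjusted p = 0.234). Since shControl libraries alone brought XAF1 past the filter, its changes are given as values only. IRF7, MX1, DHX58, USP18 and IRF2 were lower in vehicle and not called under cisplatin, IRF7 by 0.72 and DHX58 by 0.57. With both other scalings IRF7 was called lower under cisplatin as well. The DHX58 call was lost without shControl vehicle replicate 1 (adjusted p = 0.0906) or shZDHHC8 vehicle replicate 2 (adjusted p = 0.088).

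**Figure D4:**
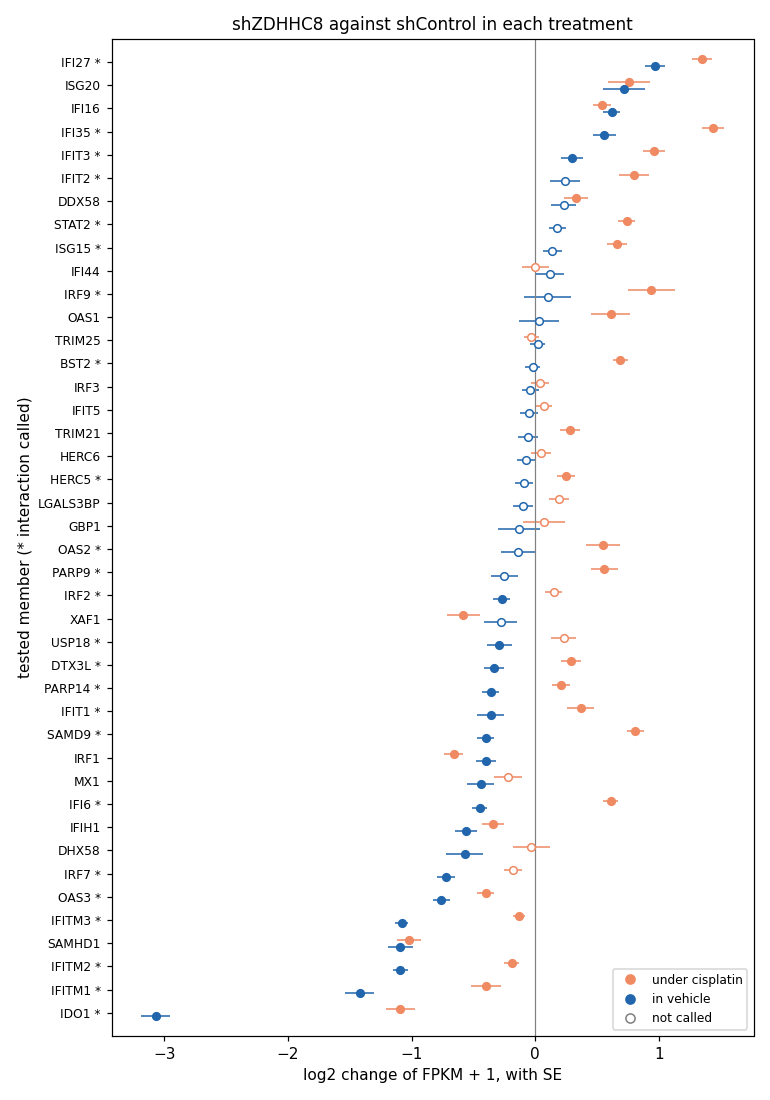
Log2 change of FPKM + 1 in shZDHHC8 against shControl cells, with its SE, for each tested member under cisplatin (orange) and in vehicle (dark blue), sorted by the vehicle change; open points were not called and stars mark a called interaction. IDO1 lies farthest to the left in both treatments, at -1.09 and -3.07, and IFI35 and IFI27 farthest to the right under cisplatin, at 1.44 and 1.35.

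The genes that carry the interferon signal were read from a list of 42 names, of which 32 were rows of the table and 25 were tested. With cisplatin 12 rose and 2 fell in shZDHHC8 cells, and 9 rose and 7 fell in shControl cells, and the interaction was positive for 8 and negative for 2. Over all tested genes 36.9% rose and 13.6% fell in shZDHHC8 cells, 36.8% rose and 25.4% fell in shControl cells, and 17.0% of interactions were positive and 13.4% negative. Under median-of-ratios scaling, 8 of the list rose and 4 fell in shZDHHC8 cells, and 4 interactions were positive. The 5 tested receptor chains were higher in shZDHHC8 than in shControl cells under cisplatin, where 33.8% of all tested genes were higher, led by IFNAR1 at 0.63 ± 0.07 (adjusted p = 8.07e-05) and IL10RB at 0.51, with IFNGR2 at 0.16 (adjusted p = 0.0459). Under both other scalings 3 of the 5 were called higher, without IFNAR2 and IFNGR2. IFNAR1 had 12.0 and 11.4 FPKM in shZDHHC8 and 7.22 and 7.26 FPKM in shControl cells with cisplatin, and 9.71 and 10.4 FPKM in shZDHHC8 and 7.86 and 8.78 FPKM in shControl cells with vehicle.

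Among sensors and adaptors, 4 of 8 rose with cisplatin in shZDHHC8 cells and none fell, and 4 rose and 1 fell in shControl cells, where 36.9% of all tested genes rose in shZDHHC8 and 36.8% in shControl cells. Under median-of-ratios scaling 4 rose and 2 fell in shZDHHC8 cells. TICAM1, the adaptor of TLR3, rose by 0.69 in shZDHHC8 and 0.72 in shControl cells. The kinase TBK1 rose in shZDHHC8 cells by 0.47, with 0.03 in shControl cells and an interaction of 0.44 (adjusted p = 0.0125), and MAVS, the mitochondrial adaptor of the RNA sensors, fell in shControl cells by 0.59, with an interaction of 0.52. MYD88 and TRAF3 were lower in shZDHHC8 cells, MYD88 by 0.80 under cisplatin and 0.91 in vehicle, and TRAF3 by 0.90 under cisplatin and 0.51 in vehicle. CGAS, the cytosolic DNA sensor, was at or under 0.0694 FPKM in every library, and STING1, the adaptor it activates, was lower in shZDHHC8 cells by 0.43 under cisplatin and 0.70 in vehicle. The feedback inhibitor SOCS3 had 4.10 and 4.12 FPKM in shZDHHC8 and 6.85 and 7.15 FPKM in shControl cells with cisplatin, and 2.88 and 3.29 FPKM in shZDHHC8 and 10.2 and 10.6 FPKM in shControl cells with vehicle. It was lower with the knockdown by 0.65 under cisplatin and 1.49 in vehicle, and its interaction was 0.84 ± 0.10 (adjusted p = 0.000775). In bulk RNA, fewer cells with a transcript and less transcript per cell cannot be told apart.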

How the data were processed

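The deposited data are a single table of normalized expression for 8 libraries, made on hg38 per the submitters' processing notes. The table names no unit, and its deposited values were read as FPKM, since they are not whole numbers and column totals differ. The aligner, quantifier and strandedness were not given in the sources used here. Depth is unknown: among 877 low genes no shared step of 1 read was found (the most common ratio was shared by 3), so precision was taken from the libraries.

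Genes at 1 FPKM or more in 2 or more libraries (13495) were tested on log2(FPKM + 1), which understates changes of low genes. limma 3.58.1 in R 4.3.3 fitted 4 group means, with eBayes trended on intensity (4 residual and 4.64 prior degrees of freedom). In each of 5 contrasts Benjamini-Hochberg adjustment ran over all tested genes, with calls at adjusted p under 0.05. The planned edgeR test was for counts and was not needed. SEs of log2 changes had a median of 0.079 (interaction: 0.11). The labels call the libraries biological replicates, but p-values reflect only their spread, which could be technical.

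The members and lists were chosen with earlier results of these data known. Named were up to 8 called members with the largest change per direction and contrast, and up to 5 genes per contrast of the other lists; other members appear by role, with their calls, and further genes of the lists were named after their values were seen. Alternatives were another pseudocount, no filter, no trend, a replicate block, 2 scalings, fits of 4 libraries and each library left out. RefSeq sequences (GRCh38.p14) were matched by symbol. Some genes of the other lists are counted but not reported here by name.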

Additional observations from a re-analysis of the deposited data

Results flagged for a closer look

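For 24 members the cisplatin change differed between shZDHHC8 and shControl cells by the interaction test (limma, adjusted p under 0.05). Every difference below is the log2 change in shZDHHC8 cells minus that in shControl cells. Among effectors it was 1.99 for IDO1, 1.21 for SAMD9, 1.02 for IFITM1, 0.94 for IFITM3, 0.90 for IFITM2, 0.74 for IFIT1, 0.71 for BST2, 0.68 for OAS2, 0.66 for IFIT3, 0.55 for IFIT2 and 0.36 for OAS3. Among the IFI proteins it was 1.06 for IFI6, 0.88 for IFI35 and 0.38 for IFI27. In the ISG15 system it was 0.52 for ISG15, 0.52 for USP18 and 0.35 for HERC5, and for the ADP-ribosylation genes 0.81 for PARP9, 0.62 for DTX3L and 0.57 for PARP14. Of the transcription factors it was 0.83 for IRF9, 0.56 for STAT2, 0.54 for IRF7 and 0.41 for IRF2. Groups of 2 libraries are too small for a test of single outlying libraries. IFIT1 was tested only because its shControl vehicle libraries reached 1 FPKM.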

How the results depend on the processing

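Of 920 values of the named members under the settings run, 888 kept their call, 32 were no longer called, those of IRF9 most often, and none turned sign. The named members were picked for the largest called changes, so these counts do not speak for the other calls. Under median-of-ratios scaling, 10 members rose with cisplatin in shZDHHC8 cells (17 as deposited) and 1, IRF1, had a negative interaction (0 as deposited). Without shControl cisplatin replicate 1, 5 members were lower with the knockdown under cisplatin (9 with it). The other member counts stayed within 1.5 times those given, under every setting run. Leaving out each library in turn gave 12 to 16 members higher and 3 to 5 lower for cisplatin in shZDHHC8 cells, 5 higher and 16 to 22 lower in shControl cells, 14 to 21 higher and 5 to 10 lower for the knockdown under cisplatin, 4 to 6 higher and 15 to 17 lower in vehicle, and 18 to 21 positive and 0 negative interactions. Where this leaves 1 library in a group, that library is assumed to vary like the other groups.

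Replicate numbers did not pair the libraries: correlations of replicate 1 minus replicate 2 between groups were -0.05 to 0.02. With the replicate block, 15 members were higher and 4 lower for cisplatin in shZDHHC8 cells, 5 higher and 21 lower in shControl cells, 21 higher and 9 lower for the knockdown under cisplatin and 6 higher and 17 lower in vehicle, and 23 interactions were positive and 0 negative. The IRF9 interaction was not called with the block (adjusted p = 0.0613). Read depth is unknown, so no limit could be set for members listed near 0. With 2 libraries a group, changes near the SE of 0.079 could not be resolved.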

Other observations

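A further 56 interferon-stimulated genes were read from a second list, of which 54 were rows of the table and 45 were tested. With cisplatin 16 rose and 3 fell in shZDHHC8 cells, and 10 rose and 16 fell in shControl cells, and the interaction was positive for 18 and negative for 3. Over all tested genes 36.9% rose and 13.6% fell in shZDHHC8 cells, 36.8% rose and 25.4% fell in shControl cells, and 17.0% of interactions were positive and 13.4% negative. The knockdown left 18 higher and 10 lower under cisplatin, and 9 higher and 21 lower in vehicle, where 33.8% of all genes were higher and 27.6% lower under cisplatin, and 26.7% higher and 25.0% lower in vehicle. Under median-of-ratios scaling the cisplatin counts in shZDHHC8 cells were 9 higher and 9 lower, and the interaction was positive for 15 and negative for 6.

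APOL1 and APOL2 had the largest interactions of that list. APOL1, which encodes a trypanosome-lysing serum protein, had 24.0 and 24.5 FPKM in shZDHHC8 and 14.4 and 14.0 FPKM in shControl cells with cisplatin, and 33.9 and 37.9 FPKM in shZDHHC8 and 65.9 and 73.5 FPKM in shControl cells with vehicle. Neither treatment had overlapping shRNA groups, and the order of the groups turned between treatments. The cisplatin change was -0.54 in shZDHHC8 and -2.21 in shControl cells, with an interaction of 1.67 ± 0.10 (limma, adjusted p = 3.37e-05). The paralog APOL2, with which APOL1 may share reads, had an interaction of 1.20. The death ligand TNFSF10 had one of 1.05, the antiviral ligase TRIM22 0.95 and SAMD9L, the paralog of SAMD9, 0.83. Of the genes of antigen presentation, NLRC5, the activator of MHC class I genes, was higher with the knockdown by 1.12 under cisplatin and 0.49 in vehicle, and B2M, the class I light chain, by 0.69 under cisplatin and 0.31 in vehicle. Others were not uniform. With vehicle, TAP1 averaged 10.8 FPKM in shZDHHC8 and 13.0 FPKM in shControl cells, and PSMB10 17.1 and 17.3 FPKM. With cisplatin, HLA-E averaged 113 and 117 FPKM. Each of these averaged higher with the knockdown in the other treatment, and PSMB8 and PSMB9 did in both. EPSTI1 was lower with the knockdown by 0.98 under cisplatin and 0.70 in vehicle, and PARP12 by 0.93 under cisplatin and 0.82 in vehicle. WARS1 was higher with the knockdown in vehicle, by 0.86, and had a negative interaction of -0.61. The chemokine gene CXCL10 was at or under 0.0256 FPKM in every library, and CXCL11 was at 0.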
